A study of Homo sapiens with 2 samples.

Results

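Axon guidance ligands, their receptors and the neuron navigators were examined in A549 cells, a human lung carcinoma line, cultured without TGF-β (control) or with 1 ng/ml TGF-β, and compared at 12 h. The study made this comparison to find genes that TGF-β changes, among them genes of transmembrane proteins. The genes described here were taken by symbol: semaphorins (SEMA), plexins (PLXN), Eph receptors (EPHA, EPHB), ephrins (EFNA, EFNB), netrins (NTN, NTNG), SLIT, ROBO and UNC5 genes, the neuropilins NRP1 and NRP2, and the navigators NAV1, NAV2 and NAV3. This gave 72 genes with 191 probe sets, of 19775 genes on the array that have a probe set with 1 gene symbol. RNA from each culture was hybridized to 1 Affymetrix array, so no difference below has a replicate check, and none was tested. All values come from a single cell line, and in RNA from a whole culture fewer expressing cells and less RNA per cell cannot be told apart.

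Guidance cues steer growing axons by attracting or repelling them, but the same ligands and receptors act in epithelia, vessels and tumors, where they control adhesion, cell spreading and movement. Ephrins are bound to the cell surface and signal to Eph receptor tyrosine kinases on the neighboring cell, and the ephrin-bearing cell can itself respond. Most semaphorins act through plexins, and most of the secreted class 3 semaphorins need a neuropilin as co-receptor. Some netrins bind DCC and UNC5 receptors, and Slits bind Robo receptors. The neuron navigators are cytoplasmic proteins that bind microtubules and the actin cytoskeleton.

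The values are MAS5 signals, intensities on a linear scale with 1 value per probe set and array. Both arrays had been scaled to a mean of 500 after 2% of the values at each end were left out. The background level was set at the highest signal among 27 probe sets for Bacillus subtilis transcripts, namely 45.8 for the control and 56.6 for TGF-β. Each gene was represented by its probe set with the highest mean signal. Genes whose signals differed at least 2-fold were called higher or lower, once any signal under the background level of its array had been raised to that level. A fold that rests on such a raised signal is written as at least that size. Signals of different probe sets are not comparable as levels, so only the same probe set is compared between the arrays. Epithelial character was checked with 13 genes, of which 12 were above background, including the simple keratins KRT8 (16817 and 19630) and KRT18 (33810 and 38248). The remaining gene, NKX2-1, was at background on both arrays. Of the 12 genes JUP was called higher and CDH1 lower, and 10 were neither. EPCAM read 2176 and 1616, KRT19 1492 and 991, CLDN2 2592 and 1743 and KRT7 17728 and 27547. The median log2 fold change of the 12 was 0.14. Keratin signals show an epithelial culture and do not identify the line as A549. Of 9 fibroblast genes 7 were at background on both arrays. The remaining fibroblast genes were DCN, at 47.5 and 46.7, and THY1, at 82.5 and 21.8. Of 8 endothelial genes CDH5, VWF, TEK, TIE1 and CLDN5 were at background on both arrays. EGFL7 read 141 and 117, PECAM1 56.4 and 65.4 and ERG 46.7 and 5.85, and none of these was called. Of the 6 immune genes on the array PTPRC and LYZ were at background on both arrays. The monocyte gene CD14 was lower, from 190 to 63.0, a 3.02-fold difference. ITGAM read 120 and 114, CD3E 48.8 and 74.8 and CD74 46.5 and 9.43, and none of these was called. The summed signal of the fibroblast list was 230 without and 196 with TGF-β, that of the endothelial list 298 and 227, and that of the immune list 465 and 310. Their part in the results was not tested.

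Of the 72 genes, 46 had a signal above background on at least 1 array and 34 had it on both. After TGF-β, 8 of the 46 genes were higher, 1 was lower and 37 were neither. The 8 were the ephrins EFNA1, EFNA2, EFNA3 and EFNB2, the semaphorin SEMA7A, the co-receptor NRP2 and the navigators NAV1 and NAV2, and the lower gene was the plexin PLXNC1. Over all 13139 genes with a signal above background, 3.18% were higher and 1.55% were lower, against 17.4% and 2.17% of these 46 genes. EFNA3 entered through its TGF-β signal alone. Requiring both signals above background left 7 higher genes of 34, or 20.6%, beside 2.93% of 11528 genes. That count takes the brightest probe set among those with both signals above background. These shares describe a pair of arrays and are no test. The genes were chosen with earlier results of these arrays known, and NAV2 is on the study's own list of changed genes. The shares are therefore no independent support. Among the 34 genes with both signals above background the median log2 fold change was 0.36, and 25 had the larger signal with TGF-β. Over the 11513 genes whose brightest probe set had both signals above background the median was -0.03, and 46.4% had the larger signal with TGF-β.

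**Figure D1:**
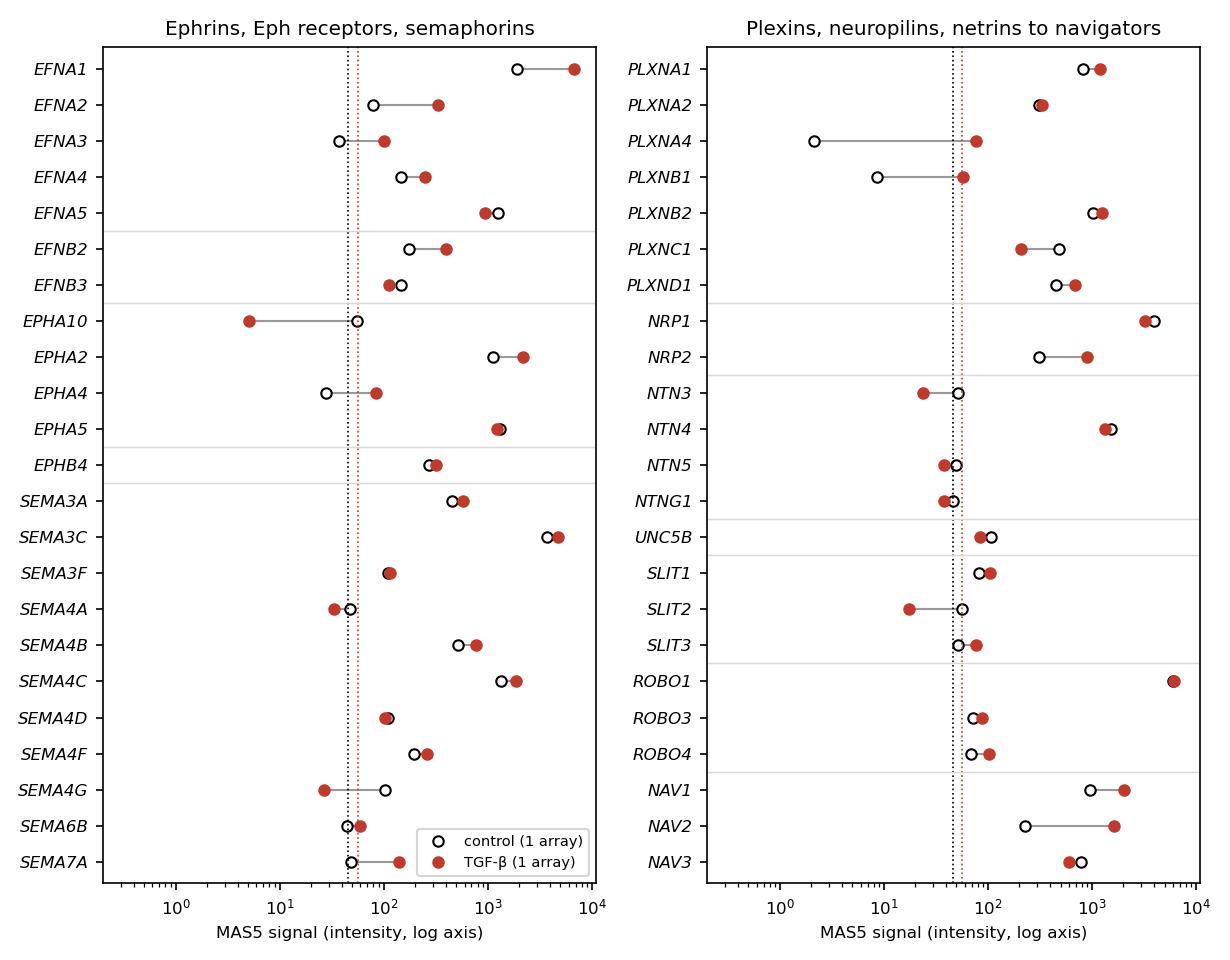
MAS5 signals (x axis, intensity on a log axis) of the 46 genes with a signal above background, 1 row per gene, for the control (open) and TGF-β (red) arrays. Each point is 1 array, gray lines join the 2 signals of a gene, pale lines separate families, and dotted lines mark the background levels of 45.8 (control, black) and 56.6 (TGF-β, red). EFNA1 and NAV2 show the widest gaps among genes with both signals over 200, while the points of ROBO1, at 6009 and 6126, nearly coincide.

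Ephrins are the ligands of Eph receptors, and 4 of the 7 above background were higher with TGF-β, beside 3.18% of all genes. EFNA1 encodes ephrin-A1, a ligand of EPHA2 held to the membrane by a lipid anchor. EFNA1 read 1916 without TGF-β and 6747 with it, a 3.52-fold rise. Its log2 fold change was 1.82. Among the 500 probe sets of most similar brightness the spread of the log2 ratios of TGF-β to control was 0.20. Without replicate cultures, such a spread gives no measure of variation between cultures treated alike. EFNA2, another A-type ephrin, went from 79.0 to 333, a 4.22-fold rise. That value comes from a single probe set matched to an expressed sequence tag, and the other 2 EFNA2 probe sets, both matched to the RefSeq transcript, were at background on both arrays. EFNA3 went from 37.1, which is under background, to 101, so that it was at least 2.20-fold higher. With 1 background level for both arrays its log2 fold change was 0.83 in place of 1.14, with a floor at the median of each array it was 0.98, and with an offset of 50 it was 0.79, and EFNA3 was then not called. EFNA4 stood at 148 and 250, a ratio of 1.69 that did not reach 2-fold.

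EFNA5, a further A-type ephrin, was not called. Its 3 probe sets above background read 1250, 941 and 261 in the control and 937, 709 and 223 with TGF-β, each with the larger signal in the control and each by less than 2-fold. Among the B-type ephrins, which span the membrane, EFNB2 went from 175 to 398, a 2.28-fold rise. The other EFNB2 probe set read 44.3, under background, and 71.2, a ratio of at least 1.55. EFNB2 was not called by the median over probe sets, with a log2 fold change of 0.91, or with an offset of 50, with 0.995, just short of 2-fold. EFNB2 encodes ephrin-B2, the ligand of EPHB4 known for marking arterial vessels. EFNB3 read 145 without and 112 with TGF-β, and EFNB1 was at background on both arrays.

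EFNA4, EFNA3 and EFNA1 lie next to each other in this order on chromosome 1, with 0 protein-coding genes between neighbors in the RefSeq annotation. Their ratios of TGF-β to control were 1.69, at least 2.20 and 3.52. The 250 bases before the RefSeq start of each (GRCh38.p14) are shown because these neighbors all had the larger signal with TGF-β, and capitals mark CAGAC or its reverse complement GTCTG, the short box that Smad proteins can bind.
EFNA4, chr1:155063490-155063739 (+ strand): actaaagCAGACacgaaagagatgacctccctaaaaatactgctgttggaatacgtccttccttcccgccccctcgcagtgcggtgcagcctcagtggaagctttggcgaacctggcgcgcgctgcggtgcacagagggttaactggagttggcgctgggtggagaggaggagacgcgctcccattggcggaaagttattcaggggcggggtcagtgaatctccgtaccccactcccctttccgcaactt
EFNA3, chr1:155078587-155078836 (+ strand): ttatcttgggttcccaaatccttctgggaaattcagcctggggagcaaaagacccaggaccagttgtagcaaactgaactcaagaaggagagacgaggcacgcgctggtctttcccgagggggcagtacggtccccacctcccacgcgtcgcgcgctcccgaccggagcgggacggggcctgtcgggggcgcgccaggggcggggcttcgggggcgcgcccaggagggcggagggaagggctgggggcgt
EFNA1, chr1:155127626-155127875 (+ strand): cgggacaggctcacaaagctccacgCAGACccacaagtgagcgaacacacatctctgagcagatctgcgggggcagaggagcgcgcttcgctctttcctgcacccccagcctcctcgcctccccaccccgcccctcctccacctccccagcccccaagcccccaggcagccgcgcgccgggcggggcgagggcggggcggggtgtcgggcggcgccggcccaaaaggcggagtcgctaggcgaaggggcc
EFNA4 and EFNA1 each hold 1 such box and EFNA3 holds none. Across all 35116 RefSeq promoter windows of this length 38.0% hold the box on either strand, against 34.7% of the 98 windows of 61 of the 72 genes. The 9 genes called higher or lower have 14 windows, of which 5 hold it, spread over EFNA1, NAV1, NAV2 and SEMA7A. None of the 98 windows holds the full Smad palindrome GTCTAGAC, present in 0.182% of all windows, or the AP-1 site TGAGTCA or TGACTCA, present in 4.20%. The boxes in EFNA4 and EFNA1 begin 243 and 225 bases before the start. Such a match is a run of letters and not a measured site.

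None of the 13 Eph receptor genes examined passed 2-fold, and 5 of them were above background on at least 1 array. The receptor gene EPHB2 is not among the 13, so its signal is not covered here. EPHA2, the receptor through which ephrin-A1 acts in epithelial cells, read 1138 without and 2177 with TGF-β, a ratio of 1.91 just short of the threshold. Its log2 fold change of 0.94 compares with a spread of 0.28 over probe sets of similar brightness. EPHA5 was almost level, at 1314 and 1232, and its second probe set read 297 and 361. EPHB4, the receptor of ephrin-B2, read 276 and 322 by its brightest probe set and 118 and 76.1 by the other, so its probe sets pointed in opposite directions. EPHA4 went from 27.9, under background, to 83.8, a ratio of at least 1.83 that was not called (without the floor it passed 2-fold, with a log2 fold change of 1.59), and its 4 other probe sets were at background on both arrays. EPHA10 was above background in the control alone, at 55.0, and read 5.08 with TGF-β. No fold is given for it, because its control signal lies under the background level of the TGF-β array. The receptors EPHA1, EPHA3, EPHA6, EPHA7, EPHA8, EPHB1, EPHB3 and EPHB6 were at background on both arrays.

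**Figure D2:**
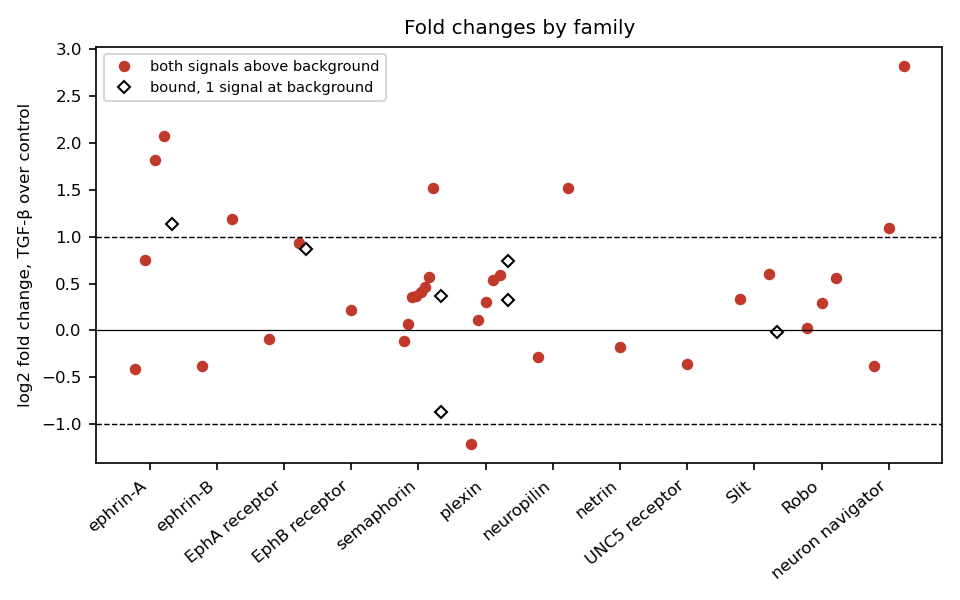
log2 fold changes (y axis, TGF-β over control) of the genes by family (x axis). Red points are the 34 genes with both signals above background, open diamonds are lower limits of size for genes with 1 signal at background, and dashed lines mark 2-fold. Of the families the A-type ephrins have the most points past the upper line, and 1 plexin, PLXNC1, lies under the lower line.

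Of 20 semaphorins 11 were above background, 1 was higher and none was lower, beside 3.18% higher and 1.55% lower over all genes. SEMA7A encodes a semaphorin anchored to the membrane by lipid, which signals through integrins and PLXNC1. It went from 48.6, just over the background level, to 139, a 2.87-fold rise. The other SEMA7A probe set read 18.5 and 78.8, a ratio of at least 1.72. With 50 added to every signal the log2 fold change of SEMA7A was 0.94 in place of 1.52, so the call depends on how a signal near background is treated. The secreted class 3 semaphorins, most of which repel or attract through neuropilins, were not called. SEMA3C read 3707 and 4770, a ratio of 1.29, and its second probe set 336 and 486. SEMA3A, the classical repellent of this class, read 451 and 580, a ratio of 1.28, and SEMA3F 111 and 116.

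All 6 class 4 semaphorins, which span the membrane, were above background. SEMA4B went from 516 to 768, a ratio of 1.49, and SEMA4C from 1359 to 1881, a ratio of 1.38, while the second probe set of SEMA4C stood at 194 and 192. SEMA4F read 196 and 260 and SEMA4D 111 and 102. SEMA4G read 103 without and 26.9 with TGF-β. Because the TGF-β signal was at background, the ratio is at least 1.82 in favor of the control and was not called, and its other probe set was at background on both arrays. SEMA4A was near background, at 47.6 and 33.4. SEMA6B stood at 44.3 and 59.2. Neither of these reached 2-fold. SEMA3B, SEMA3D, SEMA3E, SEMA3G, SEMA5A, SEMA5B, SEMA6A, SEMA6C and SEMA6D were at background on both arrays.

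Among the semaphorin receptors, PLXNC1 was lower and NRP2 was higher. PLXNC1, the plexin that binds SEMA7A, fell from 488 to 210, 2.32-fold lower. On the log2 scale this is -1.21, beside a spread of 0.34 among probe sets of similar brightness. By the median over its probe sets with a fold the value was -0.84, and PLXNC1 was not called. Its second probe set went from 78.0 to 50.6, a ratio of at least 1.38 toward the control, and the remaining 2 were at background. By their brightest probe sets the ligand SEMA7A was called higher and its plexin lower. The other plexins above background on both arrays were neither. PLXNA1 read 823 and 1198, a ratio of 1.46, and PLXND1 read 451 and 682, a ratio of 1.51, with 119 and 207 for its second probe set. PLXNB2 stood at 1016 and 1256 and PLXNA2 at 307 and 332. The second probe set of PLXNA1 went the other way, from 240 to 190. PLXNA4 and PLXNB1 were above background with TGF-β alone, at 76.5 and 57.5, and their ratios of at least 1.67 and 1.25 were not called. PLXNA3 and PLXNB3 were at background on both arrays.

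The neuropilins, are co-receptors of class 3 semaphorins and of VEGF, and only NRP2 of the pair was called. NRP1 read 3931 without and 3225 with TGF-β, a ratio of 1.22 toward the control, and 304 and 259 by its second probe set. NRP2 went from 312 to 892, a 2.86-fold rise. The 3 brightest of the 11 NRP2 probe sets rose 2.86-fold, 2.46-fold and 2.57-fold. A further probe set went from 22.4, under background, to 151, at least 3.29-fold. The next 3 in brightness had ratios of 1.05, 1.12 and 1.25, and their signals lay between 82.2 and 161. Dimmer NRP2 probe sets read 43.5 and 88.6, and 45.1 and 77.6. The dimmest read 54.9 and 51.4, and 49.9 and 41.9, with the larger signal in the control and the TGF-β signal at background. By the median over its probe sets NRP2 did not pass 2-fold, with a log2 fold change of 0.76. Which transcript forms the probe sets detect was not examined.

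**Figure D3:**
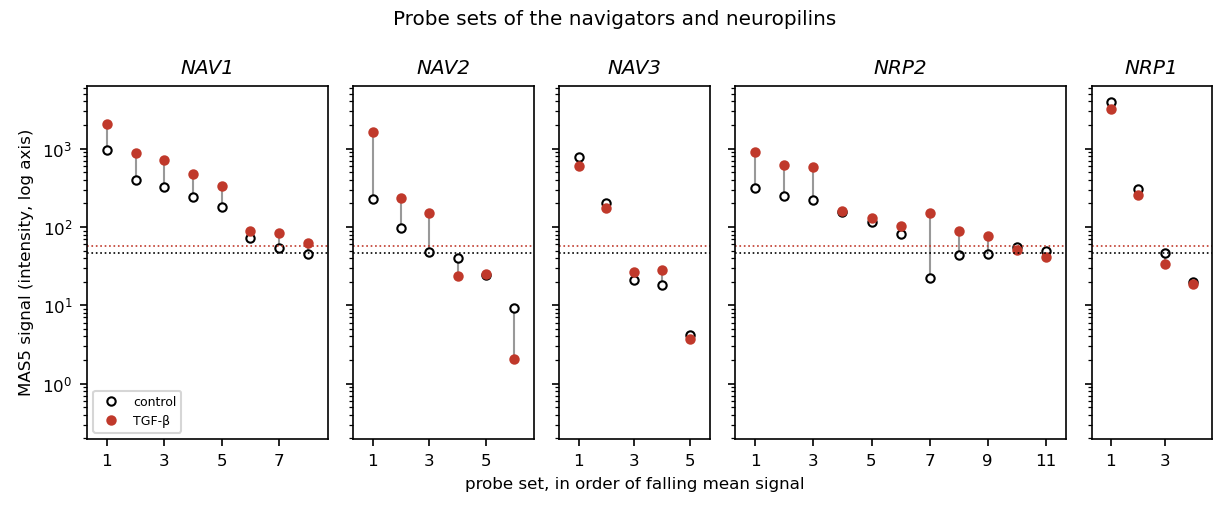
MAS5 signals (y axis, intensity on a log axis) of every probe set of NAV1, NAV2, NAV3, NRP2 and NRP1 without TGF-β (open) and with TGF-β (red), in order of falling mean signal (x axis). Points are single arrays, and the background levels are dotted in black (control) and red (TGF-β). All 8 NAV1 probe sets lie higher with TGF-β, the leading 3 of NRP2 do so by over 2-fold, and the leading probe sets of NAV3 and NRP1 lie slightly lower.

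No netrin, UNC5, Slit or Robo gene passed 2-fold, with 11 of 17 above background on at least 1 array. Over all genes 3.18% were higher and 1.55% lower. NTN4, a laminin-related netrin of basement membranes, read 1525 and 1353. ROBO1, a receptor of Slit ligands, was at 6009 and 6126, a ratio of 1.02 beside a spread of 0.17 on the log2 scale. ROBO3 read 72.2 and 88.5, and ROBO4, known from endothelium, read 69.0 and 102. UNC5B, a netrin receptor linked to cell survival, stood at 108 and 84.2 by its brightest probe set and at 45.8 and 86.6 by its second, which disagree in direction. Of the Slit ligands only SLIT2 had a mean signal under 50. SLIT1 read 83.1 and 105, SLIT3 read 51.4 and 77.8, and SLIT2 was above background in the control alone, at 57.1, and read 17.6 with TGF-β. NTN3, NTN5 and NTNG1 were above the background level in the control alone, at 51.3, 49.2 and 46.1, and no fold is given for them. NTN1, NTNG2, UNC5A, UNC5C, UNC5D and ROBO2 were at background on both arrays.

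The navigators gave the largest rise of the set. NAV2, a navigator first known as a gene induced by retinoic acid, went from 229 to 1618, a 7.06-fold rise. On the log2 scale this is 2.82, beside a spread of 0.28 among probe sets of similar brightness. This rise ranked 14 among the 11513 genes with both signals above background. NAV2 is on the list of changed genes that the study drew from these arrays, so its direction is not independent evidence. The next NAV2 probe sets went from 96.6 to 234 and from 48.5 to 150, rises of 2.42-fold and 3.10-fold, and the remaining 3 were at background. The names of all 3 probe sets above background mark targets shared with other transcripts. NAV1 went from 966 to 2059, a 2.13-fold rise. All 8 NAV1 probe sets had the larger signal with TGF-β, with ratios between 1.22 and 2.24, and 3 of them passed 2-fold. By the median over probe sets NAV1 had a log2 fold change of 0.91 and was not called. NAV3, in contrast, read 782 without and 603 with TGF-β, and 203 and 172 by its second probe set, both with the larger signal in the control and by less than 2-fold.

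RefSeq gives 3 starts for NAV2 on chromosome 11, and the 250 bases before each are shown because the array does not tell which start was used for the largest rise of the set. Capitals again mark CAGAC or GTCTG.
NAV2, chr11:19344986-19345235 (+ strand): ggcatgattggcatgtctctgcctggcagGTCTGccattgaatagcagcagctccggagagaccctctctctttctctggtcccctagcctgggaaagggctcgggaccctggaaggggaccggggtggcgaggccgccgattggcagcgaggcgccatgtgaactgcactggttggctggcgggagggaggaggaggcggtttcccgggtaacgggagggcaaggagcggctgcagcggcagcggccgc
NAV2, chr11:19712587-19712836 (+ strand): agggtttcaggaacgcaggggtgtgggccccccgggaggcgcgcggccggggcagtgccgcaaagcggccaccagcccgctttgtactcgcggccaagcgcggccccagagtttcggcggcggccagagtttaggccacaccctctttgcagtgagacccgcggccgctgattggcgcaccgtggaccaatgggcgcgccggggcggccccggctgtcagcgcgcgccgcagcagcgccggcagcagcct
NAV2, chr11:20022306-20022555 (+ strand): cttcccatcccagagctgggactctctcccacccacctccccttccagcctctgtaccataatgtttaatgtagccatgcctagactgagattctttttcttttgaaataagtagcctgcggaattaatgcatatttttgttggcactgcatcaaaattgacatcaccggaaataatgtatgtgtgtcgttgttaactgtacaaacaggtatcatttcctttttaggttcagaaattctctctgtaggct
The window before the first start holds 1 box, which begins 221 bases before the start, and the other windows hold none. NAV1 has 2 windows, of which 1 holds a box 35 bases before the start.

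**Figure D4:**
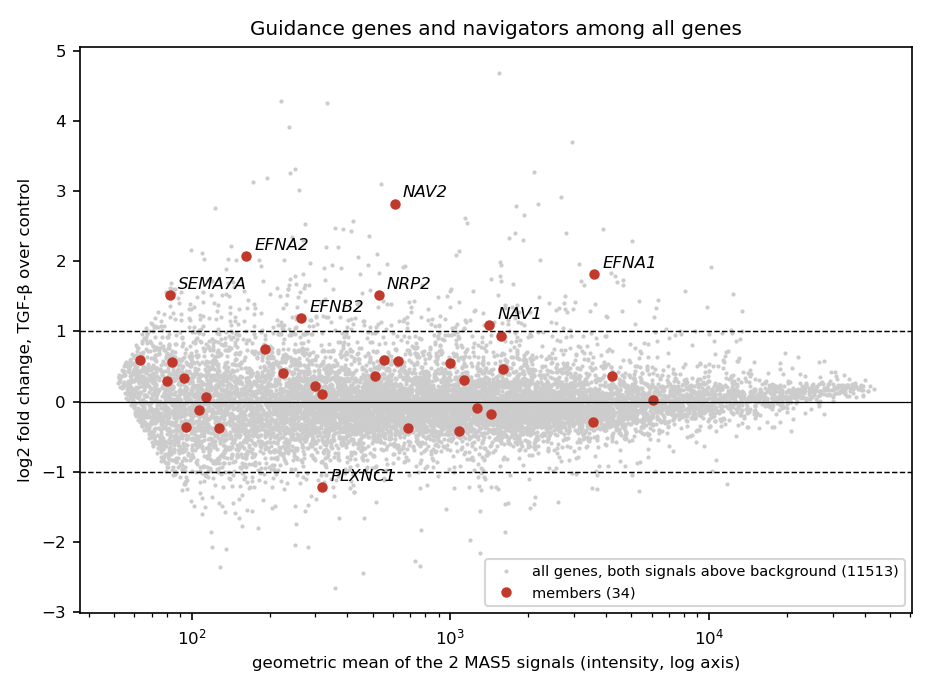
log2 fold change with TGF-β (y axis) against the geometric mean of the 2 MAS5 signals (x axis, intensity on a log axis). Gray points are the 11513 genes with both signals above background, red points are the 34 guidance and navigator genes among them, and dashed lines mark 2-fold. The 8 named genes lie outside the dashed lines, and the gray cloud is narrower at high signal, where EFNA1 lies.

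The rises of EFNA2, EFNA1, SEMA7A, NRP2, EFNB2 and NAV1 ranked 43, 67, 123, 124, 227 and 285 among the same 11513 genes, and that of EPHA2 ranked 407. The fall of PLXNC1 ranked 73. EFNA3, at background in the control, has no rank.

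Partners and effectors of these proteins were counted from lists of 112 genes, of which 106 were on the array under these symbols and 89 were above background. Of the 89 genes 9 were higher, or 10.1%, none was lower and 80 were neither, and the count over all genes was 3.18% higher. When each gene was represented by its most changed probe set, 10 were higher and 1 was lower, beside 4.19% of all genes higher. By the median over probe sets 6 were higher, beside 2.86% of all genes. With an offset of 50 and no floor 8 of 106 were higher, beside 1.67%. The lists were chosen with earlier results of these arrays known, so these shares are no independent support. Among partners of netrin receptors, TRIM9, a ubiquitin ligase that binds DCC, went from 173 to 1027, a 5.93-fold rise, and is also on the study's list from these arrays. TRIO, an exchange factor for Rac and RhoG that acts downstream of netrin and with navigators, went from 601 to 1266, a 2.11-fold rise. Of the semaphorin and plexin effectors 3 of 25 were higher. These were RND1, a GTPase that binds plexins, from 870 to 2846, MICAL2, an oxidase that acts on actin, from 1272 to 2763, and the cofilin kinase LIMK2, from 203 to 428. Of the genes listed as Eph and ephrin effectors 2 of 24 were higher, the adaptor GRB10 from 2612 to 8297 and PDLIM7 from 74.1 to 298. PDLIM7 is counted here only because it is on that list, and its link to Eph receptors was not examined. Of the neuropilin co-ligands and receptors 2 of 10 were higher and none was lower. VEGFA, a ligand of the neuropilins, went from 3533 to 7619, a 2.16-fold rise. TGFBR1, the type I receptor of TGF-β, which was on this list, went from 1586 to 6178, a 3.90-fold rise. VEGFC read 1495 and 789 and TGFBR2 3321 and 1990, both with the larger signal in the control and by less than 2-fold. The median log2 fold change of the 9 genes of this list with both signals above background was -0.04. None of 8 Slit and Robo effectors was called, and USP33, a deubiquitinase that binds ROBO1, read 2455 and 1968. Among the partners that were not called, ENAH read 10853 and 12580, the cofilin CFL1 22761 and 25925, PTPN11 13229 and 13745, and RAC1 14964 and 18050.

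Neuronal genes were counted as well. Of 16 such genes 9 were above background, 1 was lower and none was higher, beside 1.55% lower and 3.18% higher over all genes. The summed signal of the list was 10556 without and 11590 with TGF-β. Most of that sum came from TUBB3, so it mainly follows this gene. The tubulin TUBB3 read 7585 and 8785, SNAP25 1011 and 846, MAP2 708 and 573 and the neurofilament gene NEFM 341 and 524, and none of these reached 2-fold. GAP43 was at least 2.02-fold lower, from 114 to a TGF-β signal at background. The neuronal genes RBFOX3, SYP, STMN2, DCX, ELAVL3, ELAVL4 and GAD1 were at background on both arrays. The epithelial cadherin CDH1 was lower, from 1952 to 846, and plakoglobin (JUP) was higher, from 774 to 1698.

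A mean signal under 50 was the mark for a dim gene, and 34 of the 72 genes carried it. The genes nearest to this mark were SEMA3E, with a mean of 46.1, and SEMA6B, with 51.7. Of the dim genes none was called, and ratios of their deposited signals reached far past 2-fold, as for PLXNA4, whose control signal was 2.14.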

How the data were processed

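A control culture of A549 cells and a culture given TGF-β (1 ng/ml, 12 h) supplied RNA for 1 Affymetrix array each. The deposited values are intensities on a linear scale, made by the authors with MAS5 (named in the submitters' processing notes, version and genome build not given in the sources used here). MAS5 subtracts mismatch probes, so dim signals have unstable ratios.

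Control probe sets were left out. Among the other 54613, the platform annotation gave 1 symbol for 41091, which were used, several for 1801 and none for 11721. Symbols were updated through gene identifiers of RefSeq (GRCh38.p14). The members and lists were chosen with earlier results of these data known. Gene folds are signals with TGF-β over control after the floor at background. Named genes are all members, with values where above background, and, from the pathway lists, genes called or of highest mean signal. VEGFC and TGFBR2 were named in addition, after their values were seen. Marker genes were named after their values were seen. The spread is 1.4826 times the median absolute deviation. Alternatives covered floors, filters, offset, scaling, probe set choice and threshold. The computation of folds was checked on simulated signals with known folds. These folds were put only into bright genes, with the same floor for both arrays, so unequal floors and dim signals were not checked. Promoters are from RefSeq. The scripts ran under Python 3.11.15 with pandas 2.3.3, numpy 2.4.6, statsmodels 0.14.6, scipy 1.17.1 and matplotlib 3.10.9. Since each group has 1 array, no difference between the groups was tested and no interval is given. Precision is limited by that number.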

Additional observations from a re-analysis of the deposited data

How the results depend on the processing

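None of these alternatives bears on variation between cultures. With equal medians, quantile normalization, loess (span 0.3) or the probe set of largest change, the same 8 members were higher and the same 1 lower. Without the floor and with all probe sets kept, 17 of 72 members were higher (23.6%) and 10 were lower (13.9%). Of all 19775 genes 2110 were higher (10.7%) and 2395 lower (12.1%), in place of 418 and 204 of 13139. With a filter at the median and no floor, 2 members (5.26%) and 366 of all genes (2.96%) were lower. With a floor at the median of each array 2 members were lower (4.35%, beside 1.87% of all genes), SEMA4G being the added one in both. The former also called the receptor EPHA4 higher (log2 1.59), for 9 higher members, and the latter lost EFNA3, for 7. With mean signals of at least the 75 percentile, 4 members were higher (22.2%) and 0 lower, and 197 of all genes were higher (2.52%) and 63 lower. By the median over probe sets 5 members were higher (10.9%, beside 2.86% of all genes) and 0 lower, since EFNB2, NAV1, NRP2 and PLXNC1 were no longer called. At 5-fold, 1 member (NAV2) was higher (2.17%) and 0 were lower, beside 40 (0.304%) and 5 of all genes. With an offset of 50, EFNA3, EFNB2 and SEMA7A were not called and PLXNA4 was, which gave 6 higher members (8.33%, beside 1.67% of all genes). With 1 background level for both arrays EFNA3 was not called, and without shared-target probe sets NAV2 had no value above background. NAV2 otherwise lay between 1.63 and 2.87 and EFNA1 between 1.79 and 1.86 on the log2 scale. None of the 9 called members reversed under an alternative. Requiring both signals above background, which left out EFNA3, was added after the data had been seen. No paired analysis was possible because each group has 1 array. Signal over background limits 38 of the 72 members, which were at background on 1 or both arrays.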

Other observations

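A further 12 genes have symbols that begin like those of the guidance genes but are no ligand or receptor of these families by symbol. Of these, 10 are antisense or intronic transcripts. EPHA5-AS1, an antisense transcript of EPHA5, read 297 without and 233 with TGF-β, beside 1314 and 1232 for EPHA5. UNC5CL, which resembles the UNC5 receptors in part of its sequence, read 141 and 144. UNC50, a Golgi protein gene unrelated to the netrin receptors, read 2988 and 2779. SLIT3-AS1 was at 45.9 and 36.3, and the other transcripts were at background on both arrays, among them NAV2-AS4 at 12.6 and 40.5.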
